A study of Mus musculus with 39 samples.

Results

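Apelin and 8 other genes linked to sprouting tip cells are described here across endothelial deletions of Smad4, Alk1 and Eng in the neonatal mouse brain. The 9 genes, 9 of the 24946 used in every table, were taken by gene symbol: Apln, Aplnr, Esm1, Cxcr4, Kcne3, Trp53i11, Mcam, Ramp3 and Pdgfb. RNA was sequenced from brain endothelial cells captured with PECAM-antibody beads from dissociated whole brains of C57BL/6 pups. The 39 libraries used form 9 groups. The untreated groups hold 5 libraries each: Smad4 f/f; Cdh5-CreERT2 mutants and Smad4 f/f wild types at postnatal day 7, Alk1 f/f; Cdh5-CreERT2 mutants and Alk1 f/f wild types at day 6, and Eng f/f; Cdh5-CreERT2 mutants and Eng f/f wild types at day 7. The antibody groups hold 3 libraries each, all at day 7: Smad4 f/f; Cdh5-CreERT2 mutants given LC10, a blocker of angiopoietin-2 (Ang2), mutants of the same genotype given IgG, and Smad4 f/f wild types given IgG. Cdh5-CreERT2 is a tamoxifen-dependent Cre recombinase driven by the endothelial VE-cadherin promoter, and the wild types have the floxed alleles without Cre. Every pup received tamoxifen by the protocol, 300 µg on each of days 1, 2 and 3, except for Alk1 pups, which had 100 µg on day 4. IgG or LC10 was given at 30 µg on days 2 and 4. Whether a library is 1 pup or a pool is not given in the sources used here, so p-values measure the spread between these libraries, which may in part be technical.

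Growing vessels are led by tip cells, which migrate towards VEGF and are followed by proliferating stalk cells that Notch signalling holds back from the tip fate. Apelin is secreted by tip cells and acts on its receptor, which is found on neighbouring stalk and venous endothelium, and retinal tip cells are also known for Esm1, Cxcr4, Kcne3 and Pdgfb. BMP9 and BMP10 in blood signal in endothelium through the receptor ALK1, its co-receptor endoglin (Eng) and SMAD4, a route that restrains sprouting. Loss of a copy of any of these 3 genes can cause hereditary haemorrhagic telangiectasia in people.

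The deposited values are a normalized signal per gene, scaled separately in each table, and levels are compared with tests only within a table. A gene was called higher or lower where limma, fitted to all genes of the table on log2(value + 2), gave a Benjamini-Hochberg adjusted p under 0.05. Fold changes are mutant over wild type on that scale, which understates the change of low genes. If the commonest low value of a library stands for 1 fragment, a library held 11.09M to 30.84M fragments. In each library 16105 to 17683 genes were above 0. All 10 endothelial markers, Pecam1 and Cdh5 among them, were present in every group. Smad4 averaged 1819.9 ± 114 in Smad4 mutants and 5704 ± 264 in their wild types, and Eng 10152 ± 1234 in Eng mutants and 63420.4 ± 4121 in theirs (SD, n = 5 each). The signal of the Alk1 gene, Acvrl1, averaged 14152 ± 1479.9 in Alk1 mutants and 15319 ± 1011 in Alk1 wild types (SD, n = 5 each). A gene total does not resolve the deleted exons, so this neither checks nor contradicts the Alk1 labels. Under IgG, Smad4 was 3030.1, 2099 and 1817 in the 3 mutants, against 5976, 5945 and 5625 in the 3 wild types, so that mutant 1 had the most Smad4 signal left. Column names of libraries 4 and 5 in each Smad4 and Alk1 group carry a code, L146 or L219, whose meaning is not given in the sources used here. Between them, Smad4 mutants 4 and 5 held the highest Smad4 mutant value of every one of the 9 genes. They did not stand apart for all: Aplnr was 49709 and 49645 against 49447 in mutant 2, and Cxcr4 was 5705 in mutant 5 against 5733 in mutant 1. Their summed values were also the largest, at 36.0M and 35.9M against 32.6M to 33.6M in mutants 1 to 3. The share of all genes highest in these libraries was not taken.

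All 9 genes rose in Smad4 mutants, 8 rose and Aplnr fell in Alk1 mutants, 5 rose and Aplnr fell in Eng mutants, and 4 rose in Smad4 mutants given IgG. Of all genes tested, 17.2% were called higher and 15.8% lower in Smad4 mutants (33% in either direction). In Alk1 mutants 17.5% were called higher and 15.7% lower (33.2%). The shares were 12.4% and 9.08% (21.5%) in Eng mutants, and 9.67% and 8.12% (17.8%) in IgG Smad4 mutants. A change of at least 2-fold upwards was called for 6 members in Smad4 mutants, where 2.01% of all genes reached it, and for 6 in Alk1 mutants, where 3.89% did. Apln alone reached it in Eng mutants, against 0.836% of all genes, and in IgG Smad4 mutants, against 0.854%. The median log2 fold change of the 9 genes was 1.20 in Smad4, 1.23 in Alk1, 0.36 in Eng and 0.70 in IgG Smad4 mutants, while that of all genes tested lay between -0.013 and 0.0028. All 9 passed the filter on low values in each comparison, and in the libraries compared none was below 20.8, so none passed through its high group alone. Dividing by the library total moved the share of calls that were higher to 37.2% from 52.1% in the Smad4 comparison, to 41.1% from 52.7% in Alk1 and to 44.8% from 54.4% in IgG, and left the counts of members higher at 9, 8 and 4.

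**Figure D1:**
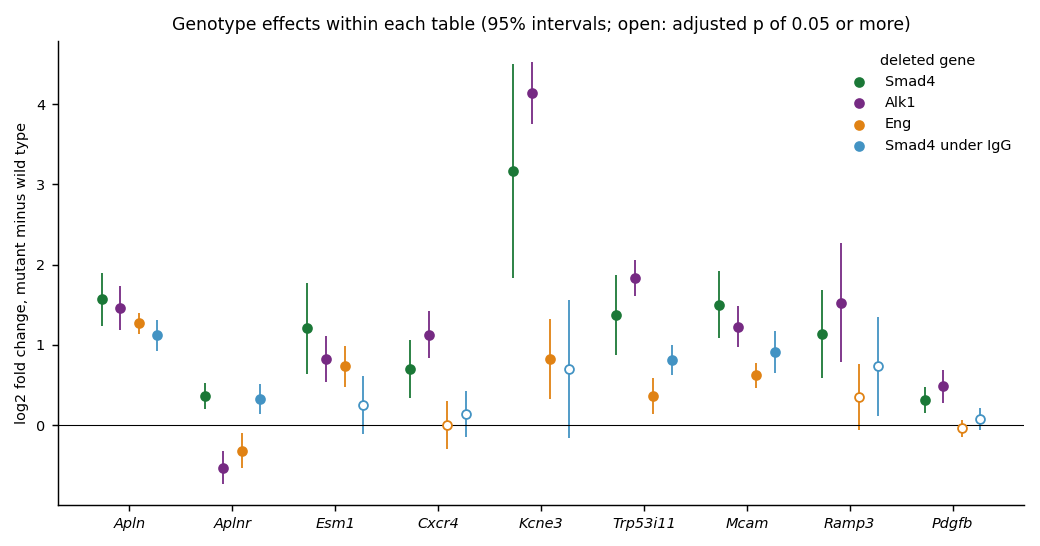
Log2 fold change of each gene, mutant minus wild type, with 95% intervals, for Smad4, Alk1, Eng and Smad4 under IgG; filled points have an adjusted p under 0.05. Apln lies between 1.12 and 1.57 in all 4, Aplnr is above 0 in both Smad4 comparisons and below 0 in Alk1 and Eng, and Kcne3 has both the highest value, 4.14 in Alk1, and a wide interval in Smad4.

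Apln, at chrX:48025146-48034853 on the minus strand (mm10, GENCODE M21), encodes the secreted peptide apelin and was the most evenly raised of the 9 genes. Its values were 33949, 29854, 29737, 47697 and 49430.1 in Smad4 mutants, against 10812, 11989, 13331, 13444 and 13317 in their wild types. Alk1 mutants had 57711, 58152, 40145, 69957 and 58029.5, and Alk1 wild types had 17393, 20538, 21316, 21667 and 20838. In both cohorts the lowest mutant was well above the highest wild type. Eng mutants had 38998, 44591, 47332, 46252 and 42009, against 16941, 17736, 18092, 18358 and 19898 in Eng wild types. Under IgG the mutants had 27918, 30929 and 31448, against 12420.3, 14565 and 14749.5 in wild types. No mutant overlapped a wild type in either table. The fold was 2.97-fold in Smad4 (log2 1.57 ± 0.15 SE, adjusted p 2.61e-05), 2.76-fold in Alk1 (1.46 ± 0.13, adjusted p 5.74e-06), 2.41-fold in Eng (1.27 ± 0.058, adjusted p 7.87e-08) and 2.17-fold under IgG (1.12 ± 0.083, adjusted p 0.00179). Differences between the cohorts' effects on Apln were not called: Smad4 minus Alk1 was 0.11 ± 0.18 (95% interval -0.26 to 0.47), Smad4 minus Eng 0.30 ± 0.18 (-0.067 to 0.67) and Alk1 minus Eng 0.20 ± 0.18 (-0.17 to 0.57), with adjusted p between 0.324 and 0.741. Those intervals still allow a difference of up to 0.67.

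Aplnr, at chr2:85136225-85139923 on the plus strand, encodes the apelin receptor, a G protein-coupled receptor, and moved in opposite directions among the models. It rose in Smad4 mutants, which had 45469.7, 49447, 40132, 49709 and 49645, against 35417, 38226, 33947, 37984 and 36202 in wild types (1.29-fold, log2 0.36 ± 0.073 SE, adjusted p 0.00367). It fell in Alk1 mutants, which had 37517, 30530.1, 26755, 29045 and 33200.0, against 49096, 43686, 44778, 46726 and 41383 in wild types (0.692-fold, log2 -0.53 ± 0.092, adjusted p 0.000984). The mutants of these 2 cohorts lay wholly above and wholly below their wild types. In Eng mutants, with 48601, 45548, 38425, 44519 and 33384, it was lower than in Eng wild types, with 55428, 55399, 56138, 49800.4 and 44610.3 (0.801-fold, log2 -0.32 ± 0.10, adjusted p 0.0401). The Eng groups overlapped, and the call was lost on division by the library total (adjusted p 0.0573), on quantile normalization (0.128) and with no trend (0.0706). It was also lost on leaving out any of Eng wild types 1 to 4 or mutants 3 to 5 (0.0529 to 0.0947). Under IgG the mutants had 40553, 44594 and 44900.3, against 35096, 31718 and 37427 in wild types (1.25-fold, log2 0.32 ± 0.08, adjusted p 0.0344). This rise was no longer called without IgG wild type 1 or 2 or mutant 2 or 3 (0.0702 to 0.127), or with no trend (0.071). The Smad4 effect exceeded the Alk1 effect by 0.89 ± 0.13 SE (adjusted p 1.93e-05) and the Eng effect by 0.68 ± 0.13 (adjusted p 0.00105). Alk1 minus Eng was -0.21 ± 0.13 with an interval of -0.48 to 0.059, and was not called (adjusted p 0.316).

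**Figure D2:**
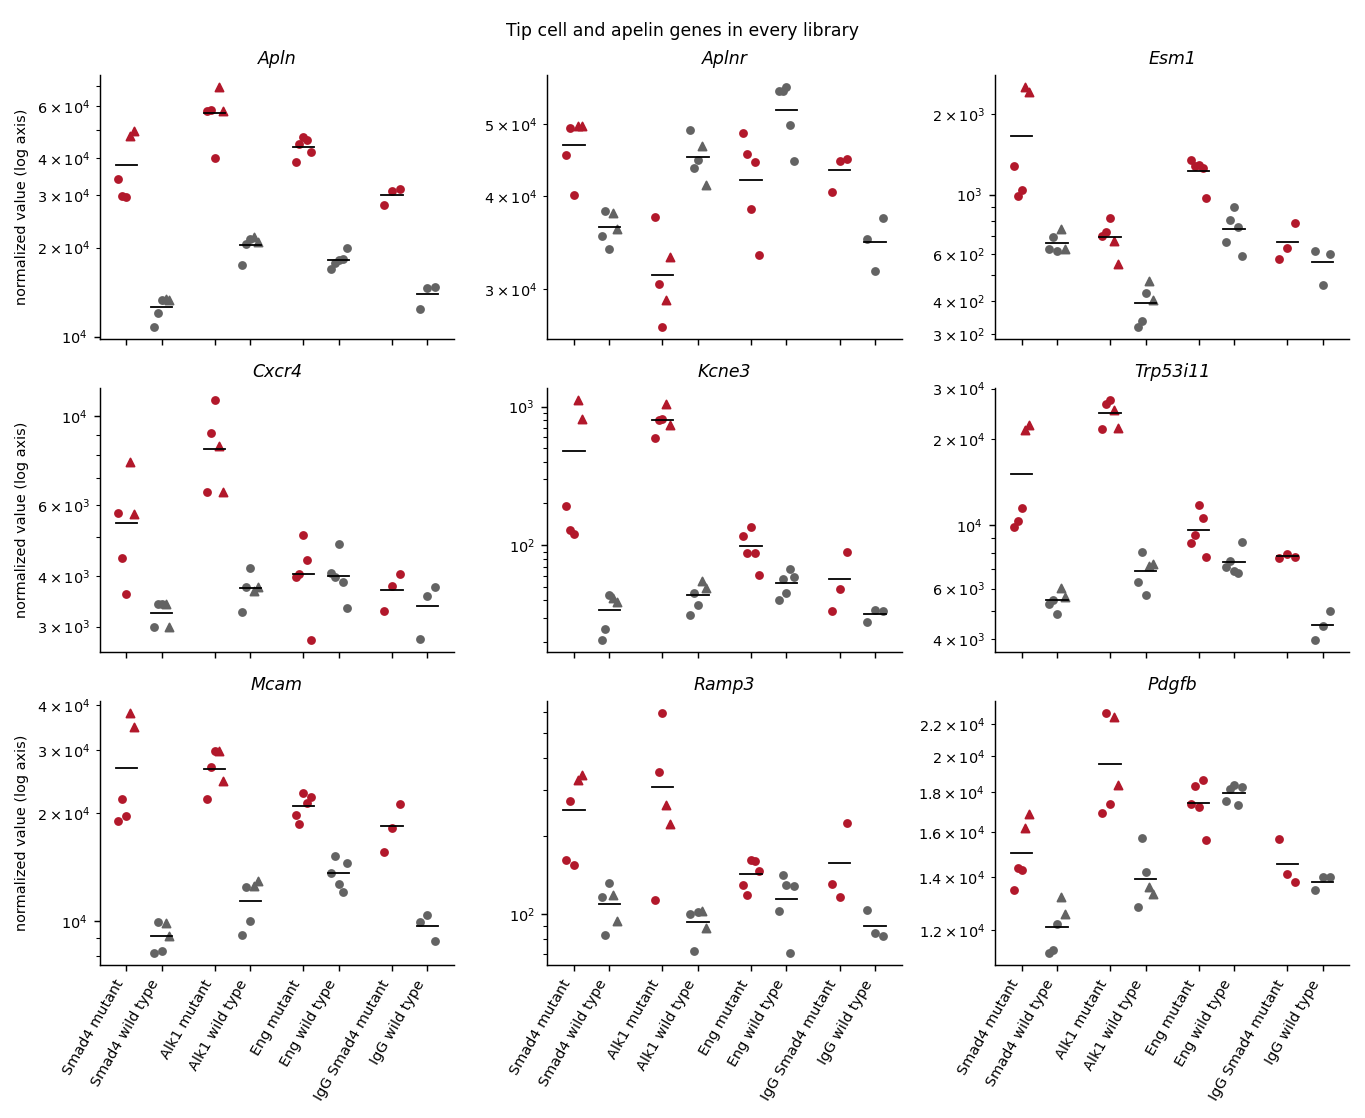
Normalized value of each gene in every library on a log axis, red for mutants and grey for wild types; bars are group means, and triangles are the Smad4 and Alk1 libraries whose column names carry a code. Every mutant lies above every wild type for Apln in all 4 comparisons, Aplnr lies lower in Alk1 mutants, and the 2 coded Smad4 mutants lie highest for Esm1, Kcne3, Trp53i11 and Mcam.

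Read per kilobase of merged exons, the apelin pair had the 2 highest means of the 9 genes in every group. Apln came first only in Alk1, Eng and LC10-treated Smad4 mutants. In all 4 wild-type groups Aplnr was first and Apln second, with no overlap: 9828 ± 485 against 3994 ± 367 per kilobase in Smad4 wild types, and 12202 ± 794 against 6462 ± 543 in Alk1 wild types (mean ± SD, n = 5 each). Apln came first in Alk1 mutants, at 18037 ± 3386 per kilobase against 8491 ± 1119 for Aplnr, again without overlap (SD, n = 5). In Eng mutants it was also first, at 13921 ± 1069.6 per kilobase against 11380.2 ± 1653 for Aplnr, with overlapping ranges (SD, n = 5). Smad4 mutants kept Aplnr first, at 12674 ± 1129 per kilobase against 12109.7 ± 3077, also with overlap (SD, n = 5). So did IgG Smad4 mutants, at 11719 ± 656 per kilobase against 9558 ± 605, without overlap (SD, n = 3). Mcam, Pdgfb, Cxcr4 and Trp53i11 followed in wild types, at levels per kilobase between 1211 ± 139.5 for Trp53i11 in IgG wild types (SD, n = 3) and 4312 ± 112 for Pdgfb in Eng wild types (SD, n = 5). Mcam and Pdgfb overlapped in the 3 untreated wild-type groups and not in IgG wild types. Cxcr4 and Trp53i11 overlapped in Alk1 and Eng wild types. Esm1, Ramp3 and Kcne3 were the lowest of the 9, in that order, in every wild-type group. Kcne3 was no longer last in Smad4 mutants, at 267 ± 260.0 per kilobase against 183 ± 65.3 for Ramp3 with overlap, or in Alk1 mutants, where its 449 ± 91.5 per kilobase stood beside 330.2 ± 46.4 for Esm1 and 225 ± 132 for Ramp3, all overlapping (SD, n = 5 each).

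Besides Apln, 4 genes were called higher in all 3 untreated cohorts: Esm1, Kcne3, Trp53i11 and Mcam. The share of all genes called higher in all 3 was not taken, so this count has no background beside it. Esm1, at chr13:113209659-113218098 on the plus strand, encodes endocan, a secreted proteoglycan that marks retinal tip cells. It was 1284, 989, 1038, 2542 and 2423 in Smad4 mutants, against 626, 696, 615, 744 and 626 in wild types (2.3-fold, log2 1.20 ± 0.26 SE, adjusted p 0.00528). Alk1 mutants had 701, 724, 818, 670.2 and 549, against 320.5, 335, 429, 476 and 402 in wild types (1.77-fold, log2 0.82 ± 0.13, adjusted p 0.000597), and Eng mutants 1352, 1284, 1288, 1255 and 974, against 662, 803, 899.9, 759 and 589 (1.66-fold, log2 0.73 ± 0.12, adjusted p 0.000916). The groups did not overlap in any of these 3 cohorts. Under IgG the mutants had 574, 629.7 and 784, against 613, 458 and 602 in wild types, an overlapping difference that was not called (log2 0.25 ± 0.15, 95% interval -0.11 to 0.61, adjusted p 0.282). No difference of the Esm1 effect between untreated cohorts was called, with values of 0.38 for Smad4 minus Alk1 (-0.18 to 0.95), 0.47 for Smad4 minus Eng (-0.10 to 1.03) and 0.087 for Alk1 minus Eng (-0.48 to 0.65), adjusted p 0.315 to 0.881.

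Kcne3, at chr7:100176502-100184869 on the plus strand, encodes an accessory subunit of voltage-gated potassium channels that pairs with Kcnq1, and had the lowest wild-type level per kilobase of the 9 in every table. Its fold change was the largest of the 9 in Smad4 and Alk1 mutants, but below that of Apln in Eng and IgG Smad4 mutants. Smad4 mutants had 192, 129.6, 120.4, 1120.5 and 813, against 20.8, 24.8, 43.8, 41.4 and 39.1 in wild types, an 8.95-fold rise (log2 3.16 ± 0.61 SE, adjusted p 0.0029). Alk1 mutants had 597, 801, 815, 1045 and 732, against 31.4, 45, 37.1, 55.6 and 48.9, a 17.6-fold rise (log2 4.14 ± 0.18, adjusted p 8.13e-08) that was the second highest log2 fold change of 13635 genes tested. Both mutant groups lay wholly above their wild types. In Eng mutants it was 117, 87.2, 136, 88.5 and 60.7, against 40, 57.3, 45.2, 66.8 and 58.5 in wild types, a 1.76-fold rise (log2 0.82 ± 0.23, adjusted p 0.0236). Mutant 5 fell within the Eng wild types, and the call was lost without Eng wild type 1 or 3 or mutant 1 or 3 (log2 0.69 to 0.76, adjusted p 0.0533 to 0.0611). Under IgG, 33.6, 48 and 89.9 in mutants against 28.1, 34.1 and 33.3 in wild types was not called (log2 0.70 ± 0.37, 95% interval -0.16 to 1.55, adjusted p 0.212). The rise was larger in Smad4 than in Eng mutants, by 2.35 ± 0.59 SE (adjusted p 0.0123), and in Alk1 than in Eng mutants, by 3.32 ± 0.59 (adjusted p 0.000329). Smad4 minus Alk1 was -0.97 ± 0.59 and not called (-2.19 to 0.24, adjusted p 0.285).

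Trp53i11, at chr2:93187548-93201759 on the plus strand, is a p53-inducible gene that has been listed among tip cell genes. It was 9807, 10312, 11428, 21540.4 and 22404 in Smad4 mutants, against 5312, 5479, 4881, 6029.9 and 5621 in wild types (2.59-fold, log2 1.37 ± 0.23 SE, adjusted p 0.00122), with mutants 4 and 5 well above mutants 1 to 3. Alk1 mutants had 21752, 26599.6, 27433, 25203 and 21828, against 6319.6, 8029, 5695, 7209 and 7303 (3.56-fold, log2 1.83 ± 0.10, adjusted p 4.92e-07). Eng mutants, at 8673, 9254, 11739, 10607 and 7756, overlapped Eng wild types, at 7139, 7493, 6914, 6824 and 8711 (1.29-fold, log2 0.36 ± 0.10, adjusted p 0.0261). That call was lost without any of Eng wild types 1 to 4 or mutants 3 or 4 (log2 0.29 to 0.37, adjusted p 0.0505 to 0.0651). It was also lost with no trend (adjusted p 0.0542). Under IgG the mutants, at 7660.2, 7943 and 7755, were above the wild types, at 3973, 4435 and 5001 (1.75-fold, log2 0.81 ± 0.081, adjusted p 0.00277). The effect was larger in Smad4 than in Eng mutants by 1.01 ± 0.24 SE (adjusted p 0.00822) and in Alk1 than in Eng mutants by 1.47 ± 0.24 (adjusted p 0.000127). Smad4 minus Alk1 was -0.46 ± 0.24 and was not called (-0.96 to 0.033, adjusted p 0.205).

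Mcam, at chr9:44134469-44142727 on the plus strand, encodes the adhesion molecule CD146, a receptor for laminins with the alpha 4 chain (Lama4), and rose in all 4 comparisons with no overlap. Smad4 mutants had 19087, 21992, 19686, 38147 and 34760.0, against 8169, 9953, 8278, 9906 and 9093 in wild types (2.83-fold, log2 1.499 ± 0.19 SE, adjusted p 0.000194). In Alk1 mutants it was 21937, 26951, 29909.6, 29815 and 24662, against 9178, 12436, 10016, 12559 and 12950.5 in wild types (2.34-fold, log2 1.23 ± 0.12, adjusted p 1.16e-05). The coded pair of Smad4 mutants stood apart above the other 3, while the Alk1 mutants formed a continuous range. Eng mutants had 19748, 18649.6, 22833, 21386 and 22239, against 13666, 15242, 12740.2, 12090.1 and 14571 (1.54-fold, log2 0.62 ± 0.071, adjusted p 9.61e-05), and IgG mutants 15642, 18268 and 21285, against 9932, 10393 and 8839.6 in IgG wild types (1.88-fold, log2 0.91 ± 0.11, adjusted p 0.00516). The Smad4 effect was larger than the Eng effect by 0.88 ± 0.21 SE (adjusted p 0.00706). Alk1 minus Eng, 0.61 ± 0.21, was called at an adjusted p of 0.0474 and lost without any of 18 of the 30 libraries (0.0507 to 0.0951): Alk1 wild types 1 and 3, Alk1 mutants 2 to 4, all Eng libraries but wild type 4 and mutant 3, and all Smad4 wild types. It was also lost on division by the library total (0.0519), on quantile normalization (0.0777), with no trend (0.0604) and with no filter (0.064). Smad4 minus Alk1 was 0.27 ± 0.21 and was not called (-0.15 to 0.70).

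Promoter sequence is shown for the 5 genes that were called higher in all 3 untreated cohorts, as the 250 bases before the RefSeq start in GRCm38.p6, 5′ to 3′ on the gene's strand. Capitals mark matches to the motifs searched. RefSeq gives Kcne3 a pair of starts. The windows are chrX:48034854-48035103 (minus) for Apln, chr13:113209409-113209658 (plus) for Esm1, chr7:100176420-100176669 and chr7:100178433-100178682 (plus) for Kcne3, chr2:93187298-93187547 (plus) for Trp53i11 and chr9:44134408-44134657 (plus) for Mcam.
Apln: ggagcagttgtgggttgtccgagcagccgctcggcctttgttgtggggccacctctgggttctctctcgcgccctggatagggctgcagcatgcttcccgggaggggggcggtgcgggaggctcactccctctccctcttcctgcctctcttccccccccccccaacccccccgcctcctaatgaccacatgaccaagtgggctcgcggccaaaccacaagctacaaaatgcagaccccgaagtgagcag
Esm1: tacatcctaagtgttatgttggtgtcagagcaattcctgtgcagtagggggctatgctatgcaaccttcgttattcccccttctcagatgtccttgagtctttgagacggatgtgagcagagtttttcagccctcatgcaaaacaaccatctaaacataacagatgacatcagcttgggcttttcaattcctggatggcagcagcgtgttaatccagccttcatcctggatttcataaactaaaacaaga
Kcne3, upstream start: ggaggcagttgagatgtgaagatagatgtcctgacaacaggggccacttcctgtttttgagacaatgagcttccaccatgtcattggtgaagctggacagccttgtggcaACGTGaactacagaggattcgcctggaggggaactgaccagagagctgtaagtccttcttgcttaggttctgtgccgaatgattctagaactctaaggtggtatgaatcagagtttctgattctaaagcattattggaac
Kcne3, downstream start: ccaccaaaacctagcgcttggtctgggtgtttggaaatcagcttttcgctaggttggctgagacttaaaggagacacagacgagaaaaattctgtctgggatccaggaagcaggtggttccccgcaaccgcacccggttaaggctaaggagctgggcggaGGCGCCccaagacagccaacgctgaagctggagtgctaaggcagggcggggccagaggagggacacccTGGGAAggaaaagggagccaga
Trp53i11: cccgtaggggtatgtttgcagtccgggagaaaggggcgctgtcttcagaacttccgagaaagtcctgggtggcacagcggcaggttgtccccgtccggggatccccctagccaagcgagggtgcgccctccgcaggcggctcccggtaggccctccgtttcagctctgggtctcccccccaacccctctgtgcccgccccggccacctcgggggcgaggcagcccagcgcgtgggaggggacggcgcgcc
Mcam: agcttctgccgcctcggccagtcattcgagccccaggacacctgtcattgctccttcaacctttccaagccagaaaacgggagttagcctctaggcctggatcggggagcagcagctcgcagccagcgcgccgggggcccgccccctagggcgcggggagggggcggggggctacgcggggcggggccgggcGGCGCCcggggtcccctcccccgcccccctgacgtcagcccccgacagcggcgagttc
The scan covered 250 bases before to 50 after the start, on both strands, in 8 promoters of the 7 members with an entry and in all 32851 promoters of the RefSeq table. The hypoxia response core ACGTG was in 1 of the 8, the upstream Kcne3 promoter at base -140, and in 19.6% of all promoters. GGCGCC, a GC-rich element bound by BMP-regulated SMADs, was in 2, Mcam at -58 and the downstream Kcne3 promoter at -90, and in 11.9% of all. The downstream Kcne3 promoter also held the RBPJ core TGGGAA at -22, a motif in 25.6% of all promoters. GENCODE M21 starts Kcne3 at chr7:100176502 and Mcam at chr9:44134469, before the RefSeq starts used here. The Kcne3 and Mcam matches therefore lie within the GENCODE bounds of these genes. The forkhead core GTAAACA was in none of the 8 and in 3.65% of all, and TATAAA was in the Cxcr4 promoter alone, at -32 and -30 in overlapping matches on the 2 strands, and in 13.6% of all. By gene, GGCGCC was in 2 of the 7 members and in 13.4% of all genes, too few members to read as a trait of the set. A match does not say that a factor binds there.

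Cxcr4, Ramp3 and Pdgfb rose in Smad4 and Alk1 mutants and were not called in Eng or IgG Smad4 mutants. Cxcr4, at chr1:128588199-128592293 on the minus strand, encodes the receptor of the chemokine Cxcl12. Its values were 5733, 4431, 3619.9, 7697 and 5705 in Smad4 mutants, against 3001, 3414, 3415, 3423 and 2999.5 in wild types (1.62-fold, log2 0.70 ± 0.16 SE, adjusted p 0.00866). Alk1 mutants had 6478, 9085, 10985, 8430.3 and 6481, against 3268, 3761, 4190.1, 3670.4 and 3770.5 in wild types (2.18-fold, log2 1.13 ± 0.14, adjusted p 6.99e-05). In neither cohort did a mutant overlap a wild type. Eng mutants, at 3980.5, 4055, 5078, 4389 and 2783, spanned the Eng wild types, at 4068, 3975, 4823, 3870.5 and 3345, with a log2 difference of -0.0023 ± 0.14 (95% interval -0.30 to 0.30, adjusted p 0.995). Under IgG the mutants had 3286, 3782 and 4046, against 2797, 3582 and 3762 in wild types (log2 0.14 ± 0.12, 95% interval -0.14 to 0.42, adjusted p 0.446). The Alk1 effect exceeded the Eng effect by 1.13 ± 0.23 SE (adjusted p 0.00116). Smad4 minus Eng was 0.70 ± 0.23 (adjusted p 0.0552), just short of a call, and was called without Smad4 mutant 2 or 3, Alk1 mutant 1 or 3, Eng wild type 5 or Eng mutant 3 (adjusted p 0.0112 to 0.0496).

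Ramp3, at chr11:6658521-6677475 on the plus strand, encodes an accessory protein that turns Calcrl into an adrenomedullin receptor. It was low in all libraries: 162, 274, 155, 330.1 and 343 in Smad4 mutants, against 116, 83.4, 132, 118 and 94.5 in wild types (2.2-fold, log2 1.14 ± 0.25 SE, adjusted p 0.00613). Alk1 mutants were widely spread, at 114, 354, 598, 263 and 224, against 99.8, 71.8, 102, 103 and 88.5 in wild types (2.88-fold, log2 1.52 ± 0.34, adjusted p 0.00474). Mutants lay above wild types in both cohorts, Alk1 mutant 1 only narrowly. Eng mutants had 130.1, 118, 161, 161 and 146.3, against 103, 142, 129, 70.9 and 128 in wild types (log2 0.35 ± 0.19, 95% interval -0.062 to 0.76, adjusted p 0.227). IgG mutants, at 131, 116 and 225, lay above IgG wild types, at 104, 84.7 and 82.6, without a call (log2 0.73 ± 0.27, 95% interval 0.12 to 1.35, adjusted p 0.0916), though quantile normalization gave 1.01 and an adjusted p of 0.0419. Alk1 minus Eng was 1.18 ± 0.41 at an adjusted p of 0.0505, and was called without any of Alk1 mutants 1 or 5, Eng wild type 4 or Smad4 mutants 1, 3, 4 or 5 (log2 1.18 to 1.49, adjusted p 0.00333 to 0.0488).

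Pdgfb, at chr15:79995874-80014977 on the minus strand, encodes the growth factor by which endothelium recruits pericytes through Pdgfrb, and had the smallest rise of the 9 in Smad4 mutants and the smallest of the 8 genes that rose in Alk1 mutants. Smad4 mutants had 13476, 14402, 14323, 16218 and 16886, against 11212, 11304, 12219, 13233 and 12579.9 in wild types (1.24-fold, log2 0.31 ± 0.073 SE, adjusted p 0.00868), which quantile normalization reduced to 0.18. Alk1 mutants had 16906, 22735, 17408, 22442 and 18379.6, against 12845, 15720.5, 14216, 13601 and 13331 in wild types (1.4-fold, log2 0.48 ± 0.10, adjusted p 0.00255). The mutants stayed above the wild types in both cohorts by a small margin. Eng mutants, at 17390.0, 18304, 17246, 18677 and 15636, and wild types, at 17535, 18153, 18407, 17356 and 18268, overlapped (log2 -0.043 ± 0.046, 95% interval -0.14 to 0.058, adjusted p 0.579). So did IgG mutants, at 15675, 14159 and 13835, and IgG wild types, at 13475, 14001 and 14015 (log2 0.072 ± 0.06, 95% interval -0.068 to 0.21, adjusted p 0.425). The Alk1 effect exceeded the Eng effect by 0.52 ± 0.11 SE (adjusted p 0.00163). Smad4 minus Eng, 0.35 ± 0.11 (adjusted p 0.0438), was lost without any of 14 of the 30 libraries (0.0507 to 0.102): all Eng libraries but mutant 4, Smad4 wild types 1 to 3 and Smad4 mutants 4 and 5. It was also lost on division by the library total (0.114), on quantile normalization (0.299), with no trend (0.0557) and with no filter (0.0594).

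Across the 9 genes, groups that did not overlap were found for 9 genes higher in Smad4 mutants, where 12.6% of all genes tested lay wholly higher, and for 8 higher and 1 lower in Alk1 mutants, where 13.3% lay wholly higher and 11.2% wholly lower. In Eng mutants 3 lay wholly higher (Apln, Esm1 and Mcam), and none lower, against 10.2% and 6.37% of all genes, and in IgG Smad4 mutants 5 did (Apln, Aplnr, Trp53i11, Mcam and Ramp3) and none lower, against 22.3% and 18.7%. Between cohorts, Aplnr alone of the 9 was called different for Smad4 against Alk1, where 15.9% of all genes were. The Smad4 and Eng effects differed for 5 members (Aplnr, Kcne3, Trp53i11, Mcam and Pdgfb) against 8.04% of all genes, and the Alk1 and Eng effects for 5 (Cxcr4, Kcne3, Trp53i11, Mcam and Pdgfb) against 14.5%. In each of these 10 the Eng effect was the lower, and both sets of differences share the Eng libraries. Tamoxifen dose, its day and the day of collection also differ between the Alk1 cohort and the others, and cannot be told apart from the deleted gene there.

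**Figure D3:**
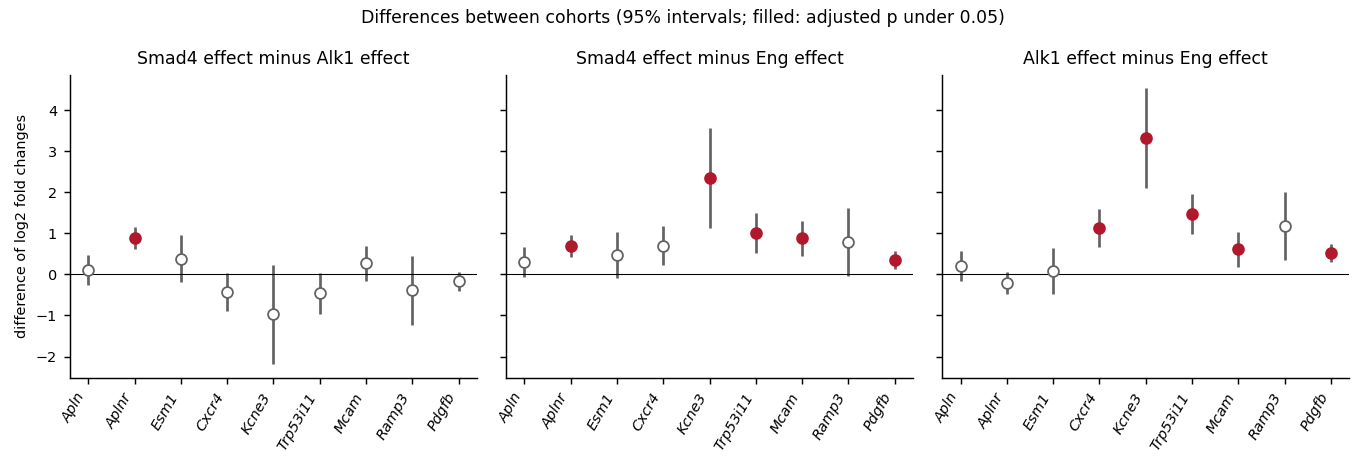
Difference of log2 fold changes between untreated cohorts with 95% intervals, for Smad4 minus Alk1, Smad4 minus Eng and Alk1 minus Eng; filled points have an adjusted p under 0.05. Aplnr alone is filled for Smad4 minus Alk1, at 0.89, and Kcne3 is the highest in both differences from Eng, at 2.35 for Smad4 and 3.32 for Alk1.

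Within the Smad4 cohort the rise differed between coded and uncoded libraries. Among coded libraries (2 mutants and 2 wild types) the log2 effect was 1.86 for Apln, 1.86 for Esm1, 4.50 for Kcne3, 1.92 for Trp53i11 and 1.94 for Mcam. Among uncoded ones (3 and 3) it was 1.38 for Apln, 0.77 for Esm1, 2.27 for Kcne3, 1.01 for Trp53i11 and 1.21 for Mcam. The difference was called for Esm1 (1.09 ± 0.17 SE, adjusted p 0.0358) and Trp53i11 (0.91 ± 0.11, adjusted p 0.0155), where 0.307% of all genes tested, 43 of 14012, were called. It was 2.23 ± 0.46 for Kcne3 (adjusted p 0.0829) and 0.73 ± 0.14 for Mcam (adjusted p 0.0645), neither of them called. For the other members it was between 0.078 for Pdgfb and 0.86 for Ramp3, with adjusted p of 0.159 or more. Coded and uncoded wild types did not differ by a call in any of the 9 genes. These effects come from a fit of coded and uncoded libraries together, in which uncoded Ramp3 was called (adjusted p 0.0416) and uncoded Cxcr4 was not (0.0562). In a separate fit of the uncoded libraries alone 7 of 9 members were still called, beside 2461 of 14159 genes. Cxcr4 (log2 0.46, adjusted p 0.0651) and Ramp3 (0.79, adjusted p 0.0863) were not. In that subset Esm1 rose by 0.77, below 1.20 in all libraries. In the Alk1 cohort no gene was called for this difference, with adjusted p of 0.999 for every member. Fitted together with the coded libraries, uncoded Alk1 libraries gave calls for Ramp3 (adjusted p 0.0292) and Pdgfb (0.0431). From uncoded Alk1 libraries alone 6 members were called higher and Aplnr lower, beside 2005 of 13581 genes called. There Ramp3 (1.66, adjusted p 0.067) and Pdgfb (0.41, adjusted p 0.0821) were not called. With mutants and wild types of the same column number as a block in that subset, Pdgfb was called (adjusted p 0.0277) and Ramp3 was not (adjusted p 0.0605). No label says that these numbers pair libraries. The tests of the difference by code were added after the data were seen. With uncoded Smad4 libraries alone, Smad4 minus Eng was 1.45 for Kcne3, 0.64 for Trp53i11 and 0.59 for Mcam, all still called, and Pdgfb was not (0.32, adjusted p 0.154). Smad4 minus Alk1 was then called for Kcne3 (-1.87 ± 0.37 SE, adjusted p 0.00123) and Trp53i11 (-0.82 ± 0.17, adjusted p 0.00158), lower in Smad4 than in Alk1 mutants. In the Alk1 cohort the coded libraries alone gave 0.47 for Esm1, against 0.82 in all libraries.

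**Figure D4:**
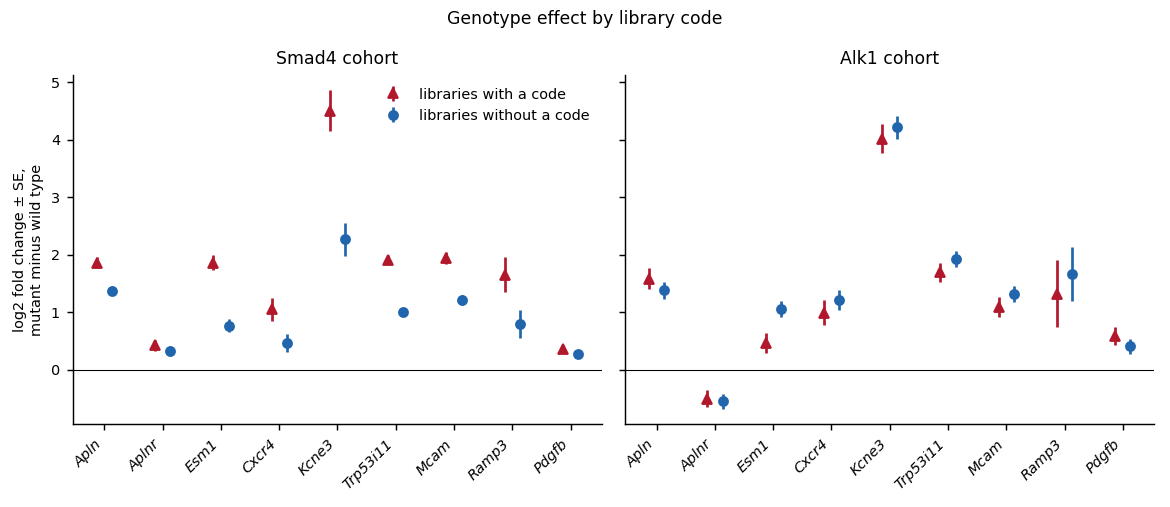
Log2 fold change with its SE, mutant minus wild type, from libraries with a code (red triangles) and without (blue circles), in the Smad4 and Alk1 cohorts. In Smad4 every gene is higher in coded libraries, by most for Kcne3 at 4.50 against 2.27, and in Alk1 the points lie close except for Esm1.

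Signals of other cell types moved with these comparisons. A lower sum of a cell type's markers can mean fewer such cells or less RNA in each, and in bulk libraries these cannot be told apart. Of 10 pericyte markers, 6 were lower in Smad4 mutants, with summed values of 17084 to 52836 in mutants and 59232 to 84165 in wild types. The sum was lowest in mutant 5, at 17084. In Alk1 mutants 3 were lower, with sums of 62966 to 119812 against 92385 to 116977, and in Eng mutants none was, with sums of 74781 to 134194 against 79207 to 129572. Under IgG 4 were lower, at 39841 to 76782 in mutants and 79649 to 110396 in wild types. Of 6 smooth muscle markers tested, 5 were lower in Smad4 mutants, 5 in Alk1, none in Eng and 1 under IgG. Of 10 neuron markers 7 were lower in Smad4 mutants, with sums of 2408 to 5428 against 4024 to 7117 in wild types. Endothelial markers summed to 529053 and 525409 in coded Smad4 mutants, 399096 to 442633 in uncoded ones and 367365 to 432579 in wild types, with 3 of 10 called higher and 1 lower. In Eng mutants 3 of 10 endothelial markers were lower, with sums of 461485 to 518877 against 471889 to 523981 in wild types. Erythroid markers were lower in every untreated cohort: 3 of 4 tested in Smad4 (11509 to 18573 in mutants, 31131 to 44808 in wild types), 4 of 4 in Alk1 (16016 to 23773.0 against 40556 to 67845) and 3 of 5 in Eng (18118 to 31962 against 26988 to 48288). Of 6 fibroblast markers 3 were lower in Smad4 mutants (4683 to 10865 against 9806 to 15641), 1 in Alk1, none in Eng and 3 under IgG (6327 to 9535 against 11327 to 13756). The part of the erythroid and fibroblast signal in the members' changes was not tested. Pericyte sums were apart between Smad4 mutants and wild types, untreated and under IgG. Smooth muscle sums were apart in untreated Smad4 (3210 to 6423 in mutants, 7422 to 8690 in wild types) and in Alk1 (5004 to 7115 against 8243 to 9855). Under IgG, microglia sums were apart, as were astrocyte sums (8822 to 11086 against 12573 to 16185). Oligodendrocyte lineage sums under IgG were apart narrowly (3397 to 3783 against 3787 to 8776). A fit with such a level cannot separate it from genotype, so lost calls and smaller effects do not measure those cells' share. With the pericyte and smooth muscle (mural) level, genes called fell from 4620 to 1817 in Smad4 and from 2480 to 62 under IgG. With that level in the Smad4 fit, 3 members stayed called (Apln, Trp53i11 and Mcam), and with the glial and neuronal level 4 did (those 3 and Kcne3). Esm1, at 1.20 before, came to 0.58 and 0.56, and Kcne3, at 3.16 before, to 1.67 and 1.61. In Alk1 mutants the mural level left 7 members higher, Ramp3 being lost at 0.64 (adjusted p 0.271). Under IgG 4 of 10 microglia markers were lower (12038 to 19556 in mutants, 20006 to 39710 in wild types). There the mural level left only Apln called, while Trp53i11 was 0.69 (0.81 before, adjusted p 0.0576), Mcam 0.70 (0.91 before, adjusted p 0.0934) and Aplnr 0.23 (0.32 before, adjusted p 0.356). The microglia level left Apln and Mcam called, with Trp53i11 at 0.58 (adjusted p 0.0533) and Aplnr at 0.30 (adjusted p 0.293). In Alk1 mutants all 3 neutrophil markers tested were higher (sums of 72.9 to 238.7 against 21.1 to 50.4, Ly6g at 0 in all wild types), and their part in Cxcr4, which neutrophils also express, was not tested.

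The other genes of the same routes were read from lists of 22 further tip cell genes, 15 ligands, receptors and partners of the members, and 11 stalk cell and Notch response genes. The lists were chosen with earlier results of these data known. Adm and Lama4 are in both the tip cell list and the partner list, so they are counted in each. The partner list also holds Pdgfrb and Pdgfra, which are among the pericyte and fibroblast markers. Of the 22, 17 were higher and none lower in Smad4 mutants (median log2 fold change 0.80), 14 higher and 2 lower in Alk1 (0.47), 10 and 3 in Eng (0.20), and 10 and none under IgG (0.40). Of all genes tested, 17.2% were called higher and 15.8% lower in Smad4 mutants, and 17.5% and 15.7% in Alk1. The shares were 12.4% and 9.08% in Eng, and 9.67% and 8.12% under IgG. Angpt2, the ligand ANG2 that LC10 blocks, rose in all 4: 13356 ± 8949 in Smad4 mutants against 1841 ± 308 (log2 2.61), 12857 ± 2798 in Alk1 mutants against 1565 ± 286 (3.03), 4854 ± 959.9 in Eng mutants against 1869 ± 120.3 (1.36; SD, n = 5 each), and 3283 ± 1148 in IgG mutants against 1717 ± 93.9 (0.88; SD, n = 3 each). Pgf, the VEGF relative placental growth factor, rose in Smad4 (log2 4.16 ± 0.25 SE, adjusted p 1.11e-06), Alk1 (3.41 ± 0.15, 8.13e-08) and IgG Smad4 mutants (2.94 ± 0.22, 0.00179) and was 0.31 ± 0.18 in Eng mutants without a call. The sulfotransferase gene Chst1 rose in all 4, by 1.99 in Smad4, 2.35 in Alk1, 0.58 in Eng and 1.15 under IgG. The basement membrane genes Lama4 and Col4a1 also rose in all 4, Lama4 by 0.79 in Smad4, 0.59 in Alk1, 0.18 in Eng and 0.55 under IgG, and Col4a1 by 0.40 in Eng. Lxn, a carboxypeptidase inhibitor gene, rose by 0.97 in Smad4 mutants (adjusted p 1.07e-06), and the actin-bundling gene Fscn1 by 0.41 under IgG (adjusted p 0.00376). Of the genes that fell, Unc5b and Kdr, the main VEGF receptor, did so in Alk1 mutants and Unc5b, Flt4 and Plod1 in Eng mutants.

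Of the 15 ligands, receptors and partners, 14 could be tested. In Smad4 mutants 4 were higher and 6 lower, in Alk1 mutants 5 and 4, in Eng mutants 2 and 2, and under IgG 2 and 3. Of all genes tested, 33% were called in either direction in Smad4, 33.2% in Alk1, 21.5% in Eng and 17.8% under IgG. The Eng count is thus not far from the share of all genes. The median of the 14 was -0.31 in Smad4, -0.16 in Alk1, -0.013 in Eng and -0.27 under IgG. Apela, the other ligand gene of the apelin receptor, was below the filter, with means of 8.3 ± 3.7 in Smad4 mutants and 2.7 ± 2.3 in wild types (SD, n = 5 each). Cxcl12, the ligand of Cxcr4, moved against its receptor: it averaged 14159.5 ± 3388 in Smad4 mutants and 34624 ± 6096 in wild types (log2 -1.31, adjusted p 0.000235). In Alk1 it averaged 8184 ± 2722 in mutants and 26120.3 ± 1796 in wild types (-1.73, adjusted p 2.02e-05), and in Eng 21902 ± 2949.9 and 43366 ± 2848 (-0.99, adjusted p 8.67e-06; SD, n = 5 each). The groups were apart in all 3 cohorts, also in Eng, where Cxcr4 itself was not called. Under IgG it was -0.85 without a call (adjusted p 0.0524). Ackr3, the scavenger receptor of Cxcl12, rose in Smad4 (0.51, adjusted p 0.0248) and Alk1 mutants (0.76, adjusted p 0.00308), as Cxcr4 did, and was 0.083 in Eng. Adm, the adrenomedullin gene, averaged 6428 ± 3036 in Alk1 mutants and 745 ± 150.3 in wild types (SD, n = 5 each), a rise of 3.00 beside 1.62 in Smad4 and 1.22 in Eng mutants, all called. Its receptor Calcrl was -0.073 in Smad4 and 0.21 in Eng mutants without a call and fell by 0.30 in Alk1 (adjusted p 0.0368). Ramp2, the main adrenomedullin co-receptor of endothelium, was 0.17 in Smad4 and -0.069 in Alk1 mutants, where Ramp3 rose, and neither was called. Kcnq1, the channel that Kcne3 joins, rose in Alk1 (0.60, adjusted p 0.00304) and was 0.34 in Smad4 mutants (adjusted p 0.0941). Pdgfrb, the receptor of Pdgfb and a pericyte marker, fell in Smad4 mutants (-0.92, adjusted p 0.0255) and was -0.35 in Alk1 (adjusted p 0.0509), -0.0044 in Eng and -0.73 under IgG (adjusted p 0.08). Vegfa, the ligand that guides tip cells, rose in Alk1 (1.53, adjusted p 9.59e-06) and fell in Smad4 mutants (-0.84, adjusted p 0.0196).

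Stalk cell and Notch response genes were mixed. Of 11, 5 were higher and 3 lower in Smad4 mutants, 2 and 4 in Alk1, 1 and 3 in Eng, and 3 and 2 under IgG. The shares of all genes called in either direction were 33% in Smad4, 33.2% in Alk1, 21.5% in Eng and 17.8% under IgG. Lfng, which modifies Notch receptors, rose in Smad4 mutants with and without IgG (2.07, adjusted p 2.62e-06, untreated, and 1.51, adjusted p 0.0027, under IgG), fell in Alk1 (-0.39, adjusted p 0.0339) and was -0.046 in Eng. The Notch feedback gene Nrarp (0.73) and the receptor Notch4 (0.64) also rose in Smad4 mutants. Hey1, a Notch and BMP target, fell in all 4, by most in Eng (-0.77, adjusted p 7.22e-05). Hey2 fell in Alk1 mutants (-0.65) and Jag1, a Notch ligand of stalk cells, by 0.42 in Alk1. Flt1, the decoy VEGF receptor, fell in Eng (-0.30, adjusted p 0.00575) and IgG Smad4 mutants (-0.49, adjusted p 0.00699). Robo4 rose in all 4, by 0.20 to 0.40.

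Genes with the most similar pattern were found by the distance between their 4 log2 fold changes among 13447 genes tested in every comparison. Nearest to Apln were Cdh26 (distance 0.542), Cdkn1a (0.567) and Cdh13 (0.575). For Cdkn1a, which encodes the cell-cycle inhibitor p21, the log2 fold changes were 1.86 in Smad4, 1.86 in Alk1, 1.53 in Eng and 1.03 under IgG. Close partners in pattern were Slc36a4 for Pdgfb (0.0539), Spag4 for Aplnr (0.0751) and S1pr1 for Cxcr4 (0.139). Spag4 shared the split of Aplnr, at 0.35 in Smad4, -0.46 in Alk1, -0.29 in Eng and 0.32 under IgG. Looser were Prr5 for Trp53i11 (0.245), Piezo2 for Mcam (0.255), Rdh12 for Ramp3 (0.284), Abcb1b for Esm1 (0.318) and Pcsk6 for Kcne3 (1.19). The distance grows with the size of the changes, so it does not rank the members.

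The Smad4 effect was smaller in value under IgG than untreated for each of the 9 members, but no member's difference was called. The share of all genes with a smaller effect under IgG was not taken. Untreated minus IgG was 2.47 ± 0.89 SE for Kcne3 (95% interval 0.57 to 4.36, adjusted p 0.691), 0.96 ± 0.38 for Esm1 (0.15 to 1.76, adjusted p 0.735) and 0.45 ± 0.22 for Apln (-0.011 to 0.92, adjusted p 0.764). Of 14273 genes tested 1 was called, or 0.00701%. Against uncoded Smad4 libraries alone 0.00708% were, and the differences were 1.57 for Kcne3, 0.52 for Esm1 and 0.26 for Apln. Among IgG mutants, mutant 1, with the most Smad4 left, was lowest in 7 of the 9 genes and mutant 3 highest in 7. The shares of all genes lowest or highest in these libraries were not taken, and a link to the Smad4 left was not tested. Uneven counts were also found in Eng mutants, where mutant 5 was lowest in 6 members and mutant 3 highest in 6.

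LC10-treated mutants were measured in a table of their own whose wild types are not analysed here, so treatment and table cannot be told apart and no test was made. After scaling all 9 antibody libraries together by the median of ratios, Apln averaged 41159 ± 2424 in LC10 mutants, 27528 ± 1736 in IgG mutants and 12736 ± 1147 in IgG wild types (SD, n = 3 each). Esm1 averaged 1309 ± 105 in LC10 mutants, 606 ± 98.8 in IgG mutants and 511 ± 79.5 in IgG wild types. Pdgfb averaged 15417 ± 334 in LC10 mutants, 13314 ± 902 in IgG mutants and 12664 ± 244 in IgG wild types. These 3 lay wholly higher in LC10 than in IgG mutants, as did 8.91% of 13708 genes. Aplnr lay wholly lower, at 33622 ± 1902 in LC10 mutants, 39647 ± 2211 in IgG mutants and 31816 ± 2578 in IgG wild types, as did 9.49% of genes. Kcne3 averaged 28.2 ± 6.9 in LC10 mutants, 52.3 ± 26.7 in IgG mutants and 29.2 ± 2.9 in IgG wild types, with LC10 and IgG mutants overlapping. Cxcr4, Trp53i11, Mcam and Ramp3 also overlapped between LC10 and IgG mutants, with log2 differences of -0.15 to 0.20. Against IgG wild types, 6 members lay wholly higher in LC10 mutants (Apln, Esm1, Trp53i11, Mcam, Ramp3 and Pdgfb) and none lower, as did 23% and 21.1% of 13916 genes. Trp53i11 was 5888 to 7019.6 in LC10 mutants against 3651 to 4562 in IgG wild types, Ramp3 130 to 184 against 75.3 to 95.6, and Mcam 14900.3 to 16207 against 8065 to 9518. Per kilobase, Apln was first in LC10 mutants at 11040.4 ± 668, ahead of Aplnr at 7678 ± 455, without overlap (SD, n = 3).

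**Figure D5:**
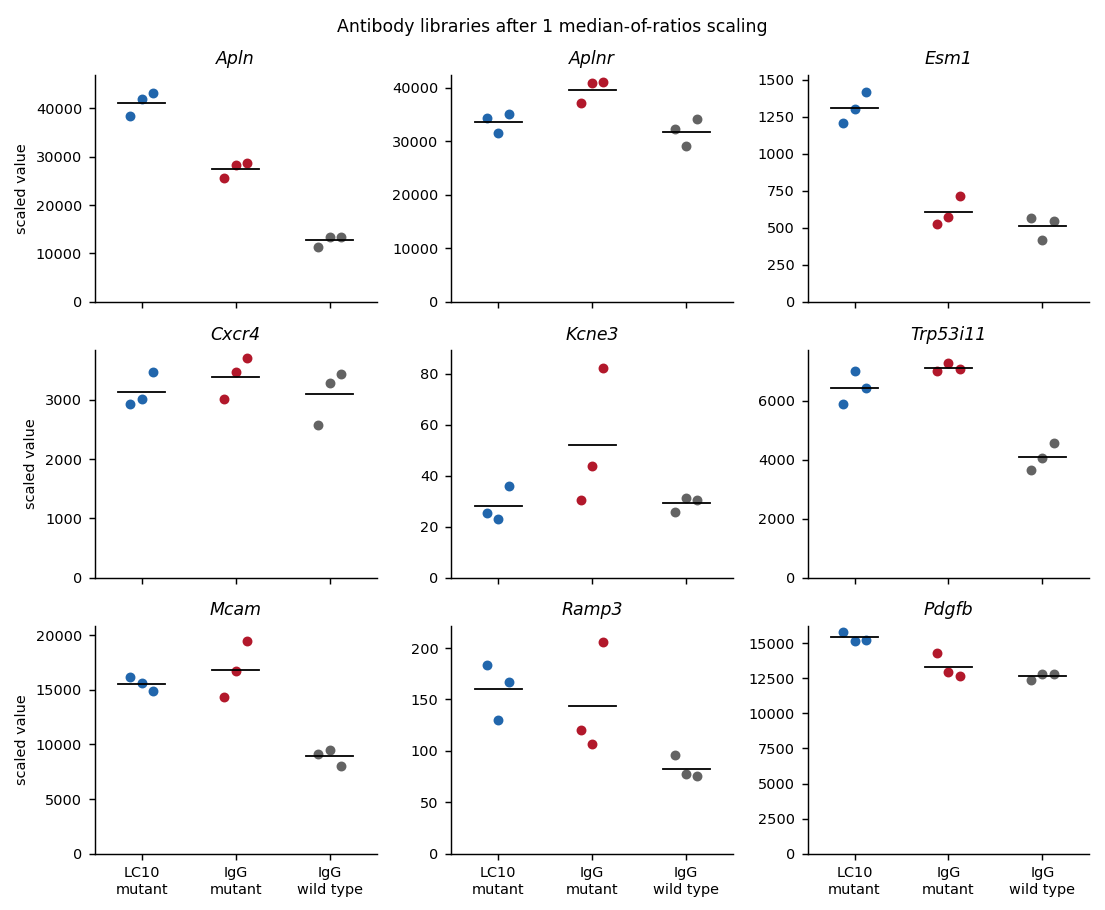
Values of each gene after joint median-of-ratios scaling in LC10 mutants, IgG mutants and IgG wild types, with a bar at each group's mean. LC10 mutants lie wholly above IgG mutants for Apln, Esm1 and Pdgfb and wholly below for Aplnr, and no test was made.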

How the data were processed

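RNA of PECAM-captured brain endothelial cells was read from TruSeq RNA v2 libraries, per the labels' protocols. The deposited values are a normalized signal per gene on the genome build mm10, as the submitters' processing notes name it. The labels speak of raw counts, but the values are not whole numbers, and a count test was not used. In each library 14.4 to 24.9% of values came within 0.05 of a whole multiple of its commonest low value. That value is rounded, which by itself moves large values off, so the share does not tell whether they are scaled counts. Aligner, counter and normalization method: not given in the sources used here. From 24972 genes per table, 26 names that are dates or repeats were dropped. Columns of untreated cohorts give a group and no sample, so libraries are numbered in the files' column order. The 3 columns of LC10 wild types fit none of the samples and were left out.

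Values were tested as log2(value + 2) with limma 3.58.1 (R 4.3.3, intensity trend), on genes of at least 20 in at least 5 libraries (3 for IgG), with p-values adjusted by Benjamini-Hochberg over all genes tested; the threshold was 0.05. Effects were compared between cohorts in joint fits. The fits were tested on simulated data. Intervals are at 95%. Kcne3 and Ramp3, with the lowest values, rest on the fewest fragments. For IgG replicate numbers, r of same numbers' deviations from group means was -0.073 to 0.0608. In uncoded Alk1 columns r was 0.108 to 0.187 for same numbers and -0.169 to -0.0206 for unlike numbers. In uncoded Smad4 columns r reached 0.356 between unlike numbers. With 3 libraries a group such r cannot settle a pairing, and no label gives one.

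Named genes were the 9 members, 8 partners, the 3 of each list with the smallest adjusted p in a comparison, and the genes nearest in pattern; other genes named were chosen after their values were seen. Members and lists were chosen with earlier results of these data known. Exon lengths and positions come from GENCODE M21 and promoters from RefSeq (GRCm38.p6), which matched 7 of 9 members, not Aplnr or Pdgfb.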

Additional observations from a re-analysis of the deposited data

Results flagged for a closer look

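Of 54 groups of values examined, 2 held a library far from the others by Dixon's test, and chance gives this in about 5% of groups. Apln was 17393 in Alk1 wild type 1, below the other 4 Alk1 wild types, and Esm1 was 974 in Eng mutant 5, below the other 4 Eng mutants and the only Eng mutant with the code L216.

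The effects of 2 deletions differed by a test of the difference in 11 cases, all on the log2 scale. Aplnr was higher by 0.89 in the Smad4 than in the Alk1 effect and by 0.68 than in the Eng effect. The Smad4 effect also exceeded the Eng effect by 2.35 for Kcne3, 1.01 for Trp53i11, 0.88 for Mcam and 0.35 for Pdgfb. The Alk1 effect exceeded the Eng effect by 1.13 for Cxcr4, 3.32 for Kcne3, 1.47 for Trp53i11, 0.61 for Mcam and 0.52 for Pdgfb. Dose and day of tamoxifen and age at collection differ with the Alk1 cohort, and their part was not tested.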

How the results depend on the processing

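Apart from fits that leave out a library, 593 results kept their direction and side of the threshold, 43 lost a call, 5 gained it and 14 changed sign; with a library left out the counts were 1063, 53, 14 and 4. The cause was not tested for any of them. Fits with a marker level that differs by genotype cannot separate that level from genotype. With marker levels of other cells in the fit, Smad4 members higher came to 4 (glial and neuronal, 2204 genes called) and 3 (mural, 1817), and IgG members higher to 1 (mural, 62 genes) and 2 (microglia, 119), with Trp53i11 at 0.69 and 0.58 (0.81 before), Mcam at 0.70 (mural; 0.91 before) and Aplnr at 0.23 and 0.30 (0.32 before); 962 IgG genes were called with the glial and neuronal level, 1130 without the trend and 1743 Alk1 genes with the mural level. Uncoded libraries alone gave 2461 called genes in Smad4 and 2005 in Alk1, where fewer libraries were fitted. Eng members lower came to 0 on division by the total, quantile normalization, without the trend and with each of the 3 marker levels. Smad4 libraries without a code gave 538 called genes for Smad4 minus Eng and 2 members lower for Smad4 minus Alk1. Leaving out a library gave 3 to 5 Eng members higher (3 without Eng wild type 1 or 3 or mutant 3), 0 to 1 lower, 471 to 3073 IgG genes called (471 without IgG mutant 2, 878 to 1450 without mutant 3 or any IgG wild type), 0 to 1 members lower for Smad4 minus Alk1 (1 without Smad4 mutant 5) and 802 to 1817 genes for Smad4 minus Eng (1817 without Smad4 mutant 3). Sign changes concerned values not called: Cxcr4 in Eng was 0.013 divided by total, 0.0095 after quantile normalization, 0.047, 0.054 and 0.076 with glial and neuronal, mural and microglia levels, 0.063 in L210 libraries and -0.090 to 0.127 with a library left out; Pdgfb in Eng was 0.0029 in L210 libraries. Under IgG, Cxcr4 was -0.19 (mural) and -0.095 (microglia) and Kcne3 -0.18 (mural). Smad4 minus Alk1 was -0.014 to 0.187 for Apln with a library left out (-0.014 without Alk1 mutant 3), and with uncoded Smad4 libraries -0.088 for Apln, -0.055 for Esm1 and -0.020 for Mcam; Alk1 minus Eng was -0.0023 for Esm1 divided by total. A replicate block in the IgG fit gave 2451 called genes against 2480, with 4 members higher as before. Among uncoded libraries, whose columns are numbered 1 to 3 in mutants and wild types, a replicate block (added after the data were seen) gave 2174 called genes in Alk1 and 1553 in Smad4; no member call changed beyond Pdgfb gained in Alk1 and Aplnr lost in Smad4 (adjusted p 0.0505 against 0.0478 unblocked). In uncoded Smad4 columns r of same numbers was -0.0974 to 0.17, and not every library correlated best with its own number, which cannot settle a pairing. No paired analysis was possible for Eng because its mutant and wild-type columns share no number within a code. With the code as a term 6428 genes were called in Smad4, 5135 in Alk1 and 3520 in Eng, against 4620, 4530 and 3082 without it, and no member call changed. Division by the total moved the median of all genes by over 0.1 for Smad4 minus Eng (-0.116) and Alk1 minus Eng (-0.106).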
